A study of Mus musculus with 6 samples.

Results

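The 10 genes described here, Dusp4, Dusp5, Dusp6, Spry1, Spry2, Spry4, Spred1, Spred2, Etv4 and Etv5, are feedback regulators of the ERK MAP kinase pathway. They were chosen by name, and all 10 were found among the 49315 genes of the count table by matching Ensembl IDs to symbols in the GENCODE M21 annotation of the mouse genome build GRCm38. RNA sequencing was done on 3 libraries of MNRR1 KO cells and 3 libraries of Wild Type (WT) cells of TKO, a mouse ovarian cancer cell line whose name stands for triple knockout. MNRR1 is a protein of mitochondria and nucleus encoded by Chchd2, and WT means TKO cells with MNRR1 intact, so both groups carry the changes that gave the line its name, which the labels do not list. The KO libraries share a single clone name, so they stand for 1 clone. Nothing in the labels says that replicates came from separate cultures, and p-values here rest on a spread between libraries that may be technical.

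Growth factor receptors activate RAS, RAF, MEK and ERK in turn, and active ERK switches on genes whose products limit the same route. Dual-specificity phosphatases remove phosphate from ERK itself, Sprouty and Spred proteins act between the receptor and RAF, and ETV4 and ETV5 are ETS transcription factors made in response to fibroblast growth factor (FGF) and ERK signalling. Their transcripts, Dusp6 above all, are widely used as readouts of ERK pathway output.

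Of the 10 genes, 7 fell in the KO clone, 0 rose and 3 did not pass. The fallen genes were Dusp6, Etv4, Dusp4, Spry1, Spry4, Spred1 and Spred2, and those that did not pass were Dusp5, Spry2 and Etv5. A gene was called at an adjusted p under 0.05 in edgeR's quasi-likelihood test with Benjamini-Hochberg adjustment over 16033 genes, in which 55.7% of all tested genes passed and 27.8% passed as lower in KO. The same count at an unadjusted p under 0.05 was 7, again with 0 higher. The share of all tested genes at that threshold was not taken, so this count has nothing to be read beside. The fall was at least 2-fold for 4 of the 10 genes (Dusp6, Etv4, Dusp4 and Spry1), beside 6.01% of all tested genes, and 0 rose that far, beside 8.10%. KO values lay wholly below WT values for 7 of the 10, beside 31.9% of all tested genes, and wholly above them for 0, beside 32.1%. The median log2 change of KO over WT was -0.81 over the 10 genes and 0.01 over all tested genes. In RNA from whole cultures, fewer cells with a transcript and less of it per cell cannot be told apart.

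Total counts were between 33226463 and 40983999 per library. Levels are counts per 1000000 counts of the library (CPM) after scaling by TMM, the trimmed mean of M values. Chchd2 itself was at 16.6, 17.6 and 17.0 CPM in KO replicates 1 to 3, far below the 367, 349 and 340 CPM of WT replicates 1 to 3, so its level fitted the label of each library. Of 6 markers of the ovarian surface and Mullerian tract, 5 were called lower (median log2 change -1.44), with summed levels of 2327 to 2564 CPM in KO and 3557 to 3748 CPM in WT. Upk1b was at a log2 change of -2.03, Gata4 at -1.50, Msln at -1.38, Upk3b at -0.54 and the scarce Lhx9 at -3.26, while Wt1, with 677 ± 8.60 CPM in KO against 719 ± 34.6 in WT (SD, n = 3 each, as for all levels below), did not pass. Summed levels of 6 epithelial markers were 1110 to 1146 CPM in KO and 1427 to 1639 CPM in WT. Among them Krt7 (-1.88), Krt8 (-0.76) and Krt18 (-0.55) were lower and Krt19 (0.44) was higher on the log2 scale, and Cdh1, which encodes E-cadherin, was under 1 CPM in both genotypes. The 5 fibroblast markers summed to 457 to 495 CPM (KO) and 616 to 656 CPM (WT), with Col1a1 at a log2 change of -3.70 and Dcn not passing. The 3 leukocyte markers Ptprc, Cd3e and Adgre1 summed to at most 0.0773 CPM (KO) and 0.531 CPM (WT) in any library, with Cd3e at 0 counts in all of them. The 3 endothelial markers summed to 1.47 to 2.55 CPM in KO and 0.531 to 0.705 CPM in WT, with Tek at 1.68 ± 0.528 against 0.287 ± 0.0493 CPM and with Pecam1 and Cdh5 overlapping between genotypes. The part of these marker changes in the results was not tested. Correlations of log CPM with the WT libraries were 0.967 to 0.970 for KO replicate 2, higher than the 0.952 to 0.960 of KO replicates 1 and 3.

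**Figure D1:**
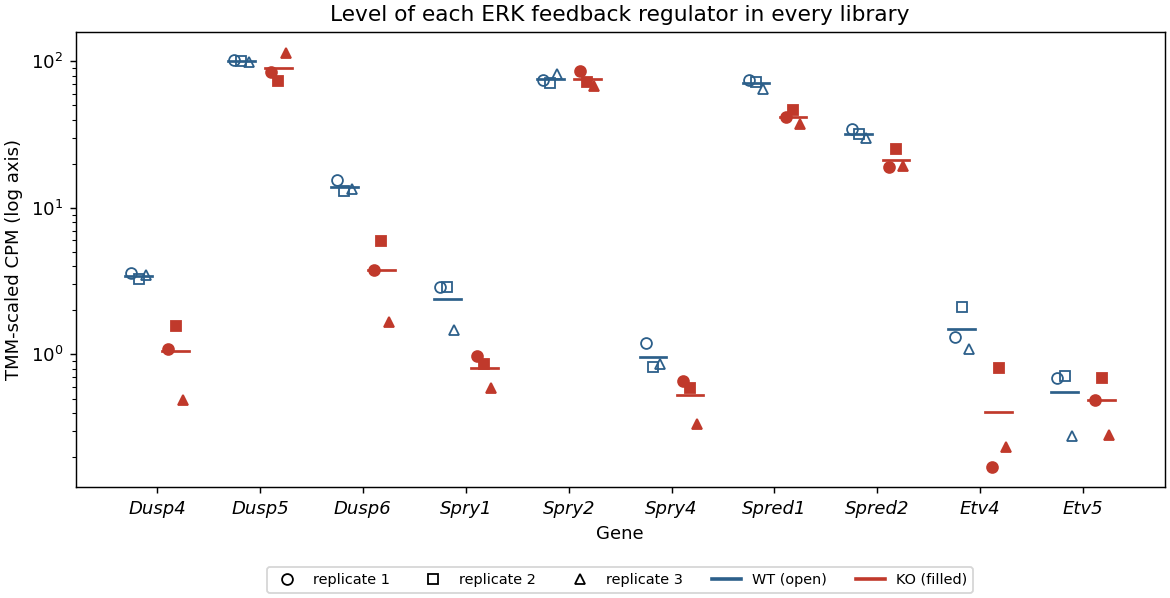
TMM-scaled CPM on a log axis for each of the 10 genes in the 3 WT (open) and 3 KO (filled) libraries, with a line at each group's mean and the marker shape giving the replicate. The KO points of 7 genes lie below all WT points, while those of Dusp5, Spry2 and Etv5 overlap them, and KO replicate 3 is the lowest KO library for 7 of the 10 genes.

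Among the phosphatases, Dusp6 and Dusp4 fell to 26.98% and 30.5% of their WT level and Dusp5 did not pass. Dusp6 (ENSMUSG00000019960, chromosome 10, 99263231 to 99267489, plus strand) encodes a cytoplasmic phosphatase that is specific for ERK. KO replicates 1 to 3 had 131, 240 and 65 counts of it and WT replicates 1 to 3 had 541, 440 and 536, which makes 3.75, 5.90 and 1.68 CPM against 15.5, 12.99 and 13.5 CPM. Every KO library was below every WT library, and within KO the highest library, replicate 2, was well above the lowest, replicate 3. The means were 3.77 ± 2.11 CPM (KO) and 14.0 ± 1.31 CPM (WT), a log2 change of -1.88 (SE 0.36, 95% interval -2.73 to -1.04) and an adjusted p of 0.00319 in edgeR. Over the edgeR, DESeq2 and limma voom settings tried, the test against a 1.5-fold change aside, the adjusted p of Dusp6 reached 0.0495.

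Dusp4 (ENSMUSG00000031530, chromosome 8, 34807297 to 34819894, plus strand) encodes a nuclear phosphatase of ERK and other MAP kinases. The KO libraries had 38, 64 and 19 counts of it, against 126, 110 and 138 in WT, in replicate order as throughout. The KO libraries stood in the same order as for Dusp6, with replicate 2 highest and replicate 3 lowest, and did not overlap the WT libraries. The means were 1.05 ± 0.542 CPM (KO) and 3.44 ± 0.181 CPM (WT), a log2 change of -1.71 (SE 0.31, adjusted p = 8.45e-04 in edgeR).

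Dusp5 (ENSMUSG00000034765, chromosome 19, 53529109 to 53542431, plus strand) encodes a nuclear phosphatase specific for ERK. The KO libraries were at 85.2, 72.9 and 114 CPM, against 102, 101 and 98.6 CPM in WT. KO replicates 1 and 2 were below the WT range and KO replicate 3 was above it, so the groups overlapped. The log2 change was -0.15 (SE 0.14, 95% interval -0.46 to 0.17, adjusted p = 0.403 in edgeR). Without KO replicate 3 the log2 change was -0.35 and passed (adjusted p = 7.34e-04 in edgeR, within a range of 7.34e-04 to 0.952 over the settings tried). An antisense gene, AC137853.2, shares 547 of the 2473 exon bases of Dusp5. The count table has no row for AC137853.2, so its reads could not be checked. The sources used here do not give the strand setting of the counting.

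The 250 bases before the RefSeq start site (GRCm38.p6) were searched on both strands in the 7 of the 10 genes with such a window, 8 windows in all because Etv5 has a pair. Dusp4, Spry4 and Etv4 had none. Dusp5 held 2 abutting CArG boxes, the binding motif of serum response factor, at bases 82 to 73 and 72 to 63 before the start, and no other window of the 10 genes held this motif. A CArG box was found in 1.47% of all 32851 windows. It was found in 2 of the 12 immediate early genes with a window (Egr2 and Srf) and in 2 of the 17 growth factor ligand genes with a window (Igf2 and Pdgfc). The ETS motif AGGAAG was found before Dusp5, Dusp6 and Spred2 and in 29.5% of all windows, and the ETS motif CCGGAAG in none of the 8 windows and 6.91% of all. Neither the AP-1 motif TGANTCA (6.75% of all) nor the cAMP response element TGACGTCA (1.55% of all) was found in the 8 windows. Of the 8 other genes of the families with a window, Dusp1 and Dusp8 held a cAMP response element, that of Dusp1 at bases 143 to 136 before its start. Dusp1 rose and Dusp8 fell. These matches describe letters in a window and were not tested for binding. Positions above are counted from the RefSeq start, and the printed windows leave out the last 36 bases before it for Dusp5, 47 for Dusp1 and 0 for Dusp6. The windows of these 3 phosphatase genes are shown because their transcripts went different ways, 5′ to 3′ on the gene's strand, ending before the annotated exon, with motif matches in capitals (CTTCCT is AGGAAG on the opposite strand).
Dusp5, chr19:53528895-53529108, plus strand: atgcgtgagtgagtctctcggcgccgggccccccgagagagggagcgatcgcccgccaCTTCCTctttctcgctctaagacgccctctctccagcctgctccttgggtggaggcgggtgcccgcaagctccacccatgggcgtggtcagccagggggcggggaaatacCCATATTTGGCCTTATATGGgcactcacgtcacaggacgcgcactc
Dusp6, chr10:99262981-99263230, plus strand: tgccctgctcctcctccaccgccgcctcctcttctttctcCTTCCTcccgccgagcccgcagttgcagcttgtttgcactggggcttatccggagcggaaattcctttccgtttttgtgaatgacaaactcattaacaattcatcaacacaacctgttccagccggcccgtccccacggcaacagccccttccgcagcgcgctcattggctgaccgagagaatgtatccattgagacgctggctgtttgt
Dusp1, chr17:26508520-26508722, minus strand: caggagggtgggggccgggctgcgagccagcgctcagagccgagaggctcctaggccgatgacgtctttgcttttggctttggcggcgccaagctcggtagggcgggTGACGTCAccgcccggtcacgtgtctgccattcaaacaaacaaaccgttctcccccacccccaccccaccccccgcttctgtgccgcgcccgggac

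Among the Sprouty genes, whose products inhibit signalling from receptors to RAS and RAF, Spry1 and Spry4 fell and the far more abundant Spry2 did not pass. Spry1 (ENSMUSG00000037211, chromosome 3, 37639947 to 37644598, plus strand) had 34, 35 and 23 counts in the KO libraries, against 101, 97 and 58 in WT. WT replicate 3 was the lowest WT library and still lay above all KO libraries. The means were 0.809 ± 0.195 CPM (KO) and 2.40 ± 0.817 CPM (WT), a log2 change of -1.57 (SE 0.31, adjusted p = 0.00125 in edgeR). Gm42922, a gene model on the opposite strand that shares 710 of the 2906 exon bases of Spry1, had at most 3 counts in any library.

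Spry4 (ENSMUSG00000024427, chromosome 18, 38586247 to 38601415, minus strand) was scarce, with 23, 24 and 13 counts in the KO libraries, against 42, 28 and 34 in WT. The groups did not overlap in CPM, but the lowest WT library (0.826 CPM) and the highest KO library (0.658 CPM) were close. The log2 change was -0.86 (SE 0.32, adjusted p = 0.0408 in edgeR). Spry4 did not keep its call when KO replicate 3 (adjusted p = 0.140) or any WT replicate (1, 2 and 3 in turn: 0.163, 0.0552 and 0.0580) was left out. It also lost it with upper-quartile scaling (0.0524), library totals (0.0707) and DESeq2 (0.0948), in a range of 0.0365 to 0.163 apart from the test against a 1.5-fold change (0.366).

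Spry2 (ENSMUSG00000022114, chromosome 14, 105891947 to 105896819, minus strand) was at 85.4, 72.8 and 68.1 CPM in the KO libraries, against 74.5, 71.5 and 81.5 CPM in WT. The libraries of the genotypes were interleaved. Its log2 change was -0.01 with a 95% interval of -0.20 to 0.18 (adjusted p = 0.936 in edgeR), and it turned to 0.04 with upper-quartile scaling and 0.11 with library totals.

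The Spred genes, whose products hold RAF inactive and recruit neurofibromin to RAS, fell to 59.3% (Spred1) and 65.9% (Spred2) of their WT level. Spred1 (ENSMUSG00000027351, chromosome 2, 117121374 to 117182279, plus strand) was at 41.6, 46.8 and 37.4 CPM in the KO libraries, against 74.6, 72.4 and 65.1 CPM in WT. Spred2 (ENSMUSG00000045671, chromosome 11, 19924375 to 20024026, plus strand) was at 19.0, 25.1 and 19.4 CPM in the KO libraries, against 34.6, 31.9 and 29.9 CPM in WT. For both genes all KO libraries were below all WT libraries and KO replicate 2 was the highest KO library. Log2 changes were -0.75 (SE 0.08, adjusted p = 3.18e-05) for Spred1 and -0.60 (SE 0.11, adjusted p = 7.51e-04) for Spred2 in edgeR. Their coefficients of variation within KO were 11.2% and 16.03%, against 51.6% for Dusp4, 55.9% for Dusp6 and 87.1% for Etv4.

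Of the Etv genes, Etv4 fell and Etv5 did not pass, and both were scarce. Etv4 (ENSMUSG00000017724, chromosome 11, 101769742 to 101785371, minus strand) had 6, 33 and 9 counts in the KO libraries, against 46, 71 and 43 in WT. KO replicate 2 held most of the KO counts and was still below all WT libraries. The means were 0.405 ± 0.353 CPM (KO) and 1.498 ± 0.530 CPM (WT), a log2 change of -1.84 (SE 0.49, 95% interval -2.93 to -0.75, adjusted p = 0.00882 in edgeR). Over the edgeR, DESeq2 and limma voom settings tried, its adjusted p reached 0.0393, apart from the edgeR test against a 1.5-fold change (0.0540). With 1 library left out the log2 change ran from -2.85 (without KO replicate 2) to -1.50. Etv5 (ENSMUSG00000013089, chromosome 16, 22381309 to 22439719, minus strand) had 17, 28 and 11 counts in the KO libraries, against 24, 24 and 11 in WT. The groups overlapped, and the 95% interval of its log2 change of -0.17, from -1.13 to 0.79, takes in a fall or a rise of more than 1.5-fold (adjusted p = 0.757 in edgeR).

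Levels of different genes were compared per kilobase of exon (RPKM, TMM-scaled CPM divided by exon length). In WT cells the order was Dusp5 (40.6 ± 0.678 RPKM), Spry2 (36.3 ± 2.44), Spred1 (10.4 ± 0.729), Spred2 (6.95 ± 0.510), Dusp6 (4.47 ± 0.419), Dusp4 (1.26 ± 0.0660), Spry1 (0.827 ± 0.281), Etv4 (0.483 ± 0.171), Spry4 (0.202 ± 0.0438) and Etv5 (0.136 ± 0.0592). Neighbours in this order did not overlap over the 3 WT libraries, except Spry1 and Etv4. In KO cells the upper part of the order was the same, but Dusp5 and Spry2 overlapped (36.7 ± 8.55 and 36.1 ± 4.29 RPKM), and so did each pair of neighbours from Dusp6 (1.205 ± 0.674 RPKM) down to Spry4 (0.111 ± 0.0358 RPKM). The most abundant transcripts per length, Dusp5 and Spry2, were among those that did not pass.

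Shares of the summed RPKM were taken first within the 10 genes alone. Dusp5 held 95.5 ± 3.09% of the sum of Dusp4, Dusp5 and Dusp6 in KO and 87.7 ± 0.801% in WT, and Dusp6 held 3.45 ± 2.38% and 9.63 ± 0.712% (SD, n = 3 each). The share of Dusp6 was 3.32%, 5.89% and 1.14% in KO and 10.4%, 9.01% and 9.48% in WT, without overlap. Spry2 held 98.9 ± 0.193% of the sum of Spry1, Spry2 and Spry4 in KO and 97.2 ± 0.927% in WT. Spred1 held 57.5 ± 2.07% of the sum of Spred1 and Spred2 in KO and 60.0 ± 0.616% in WT, with overlapping libraries. Etv4 held 48.2 ± 14.9% of the sum of Etv4 and Etv5 in KO and 78.4 ± 6.14% in WT, from counts of 6 to 71 per library. With the other listed genes of the families added, the share of Dusp5 among 10 phosphatase genes was 42.5 ± 7.85% in KO and 43.6 ± 0.522% in WT, with overlapping libraries. That of Spry2 among 4 Sprouty genes was 79.4 ± 1.28% in KO and 81.3 ± 1.29% in WT. Among 3 Spred genes Spred1 held less in KO, 48.8 ± 1.88% against 55.6 ± 0.691% in WT. Among 3 Etv genes Etv4 held 48.1 ± 14.7% in KO and 78.2 ± 6.26% in WT. These shares were not tested.

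**Figure D2:**
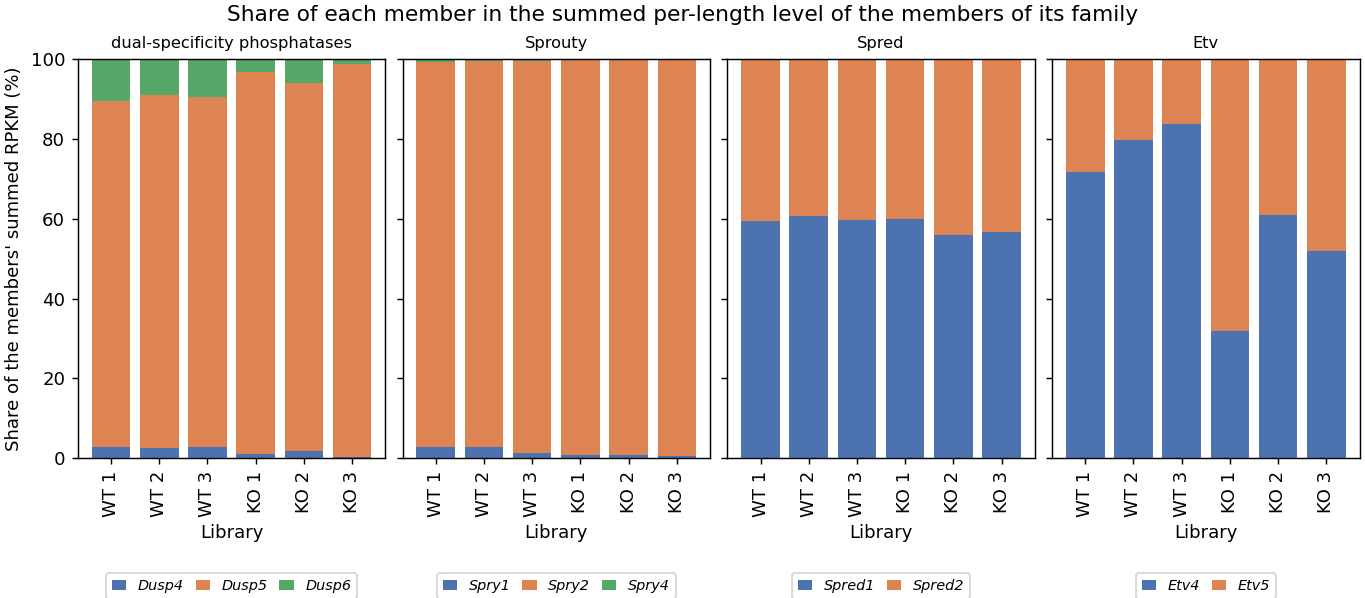
Stacked bars give each member's share, in percent, of the summed RPKM of those of the 10 genes that belong to its family, in every library, with WT libraries on the left of each panel and other genes of the families left out. Dusp5 and Spry2 make up most of these sums in all 6 libraries, and the share of Dusp6 is smaller in each KO library. Spred1 lies at 56.0% to 60.7% and Spred2 at 39.3% to 44.0% of a sum that leaves out Spred3.

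Within the KO clone, replicate 2 was the highest library for 6 of the 10 genes (Dusp4, Dusp6, Spred1, Spred2, Etv4 and Etv5), beside 39.5% of all tested genes, and replicate 3 the lowest for 7, beside 36.5%. Both shares take in genes that changed in either direction. A share over the genes lower in KO alone was not taken. Fos, an AP-1 subunit gene, stood in the same order as Dusp6 and Dusp4, at 181, 304 and 118 CPM in KO replicates 1 to 3. Nr4a1, a nuclear receptor gene, stood in the opposite order at 122, 37.0 and 157 CPM, as Dusp5 did. With 3 KO libraries these orders are descriptions and were not tested.

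**Figure D3:**
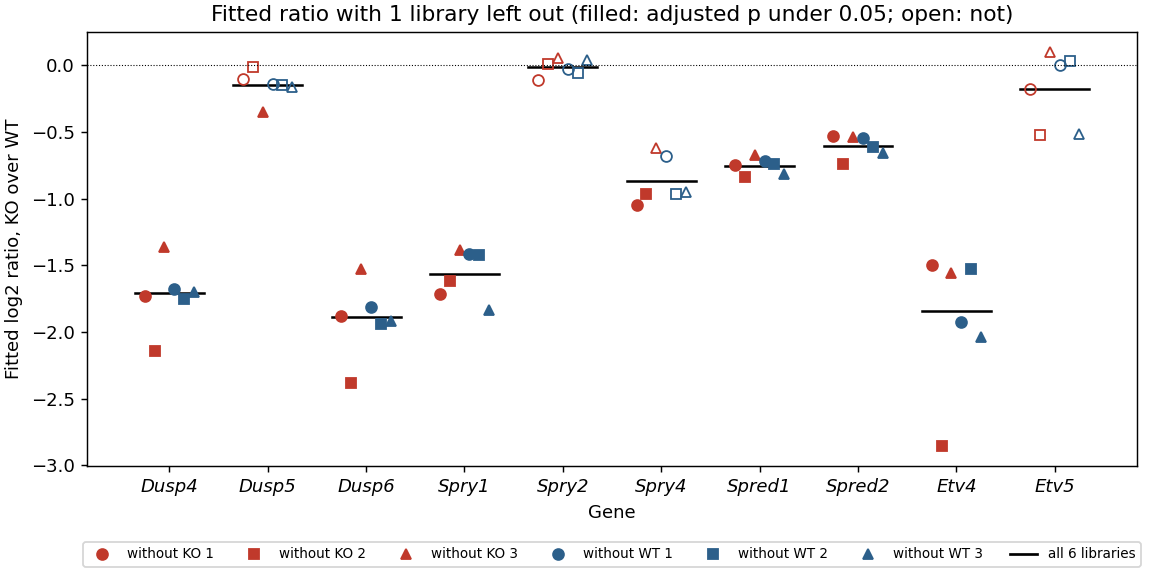
Fitted log2 ratio of KO over WT for each of the 10 genes with all 6 libraries (line) and with 1 library left out (points, filled where the adjusted p was under 0.05 in edgeR and open where it was not). Without KO replicate 2 the ratio of Etv4 moved from -1.84 to -2.85 and that of Dusp6 from -1.88 to -2.38. At the other end, the smallest falls with 1 library left out were -1.50 for Etv4 and -1.53 for Dusp6. Without KO replicate 3 Dusp5 passed and Spry4 did not.

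The remaining genes of these 4 families went both ways. Of 10 listed, 9 were tested. Among these 3 were higher and 5 lower (3 and 2 with library totals), at a median log2 change of -0.29. The counts of this list and of those below stand beside 27.8% of all tested genes called higher and 27.8% called lower. Dusp1, an immediate early gene for a nuclear phosphatase that acts mainly on p38 and JNK, rose from 14.6 ± 2.12 to 58.2 ± 5.01 CPM. The KO libraries were at 52.5, 61.9 and 60.2 CPM, far above the 14.2, 12.7 and 16.9 CPM of WT, with a log2 change of 1.99 (SE 0.10, adjusted p = 2.58e-07 in edgeR). Dusp2, another inducible nuclear phosphatase gene, fell from 1.67 ± 0.279 to 0.568 ± 0.343 CPM (log2 change -1.55, adjusted p = 0.00663 in edgeR). Dusp8, whose product acts on JNK and p38, fell from 75.5 ± 8.52 to 35.01 ± 6.92 CPM (log2 change -1.11, adjusted p = 1.57e-04 in edgeR).

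The ERK phosphatase genes Dusp7 and Dusp9 and the JNK and p38 phosphatase gene Dusp10 had smaller falls, at log2 changes of -0.47, -0.33 and -0.29. All of these calls were lost with library totals and without some single libraries, with adjusted p up to 0.0758, 0.127 and 0.201 in edgeR. For Dusp7 those libraries were KO replicate 1, WT replicate 2 and WT replicate 3, and for Dusp10 they were KO replicate 2, WT replicate 1 and WT replicate 3. For Dusp9 it was each library but KO replicate 2. Dusp16, at 77.3 ± 6.46 CPM (KO) against 79.0 ± 2.11 CPM (WT), did not pass. Spry3 and Spred3 rose, from 31.7 ± 1.36 to 39.0 ± 1.13 CPM (log2 change 0.30, adjusted p = 0.00205) and from 8.40 ± 0.159 to 11.8 ± 1.33 CPM (0.49, adjusted p = 0.00277 in edgeR). Etv1, the nearest relative of Etv4 and Etv5, had at most 2 counts in any library and was not tested.

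**Figure D4:**
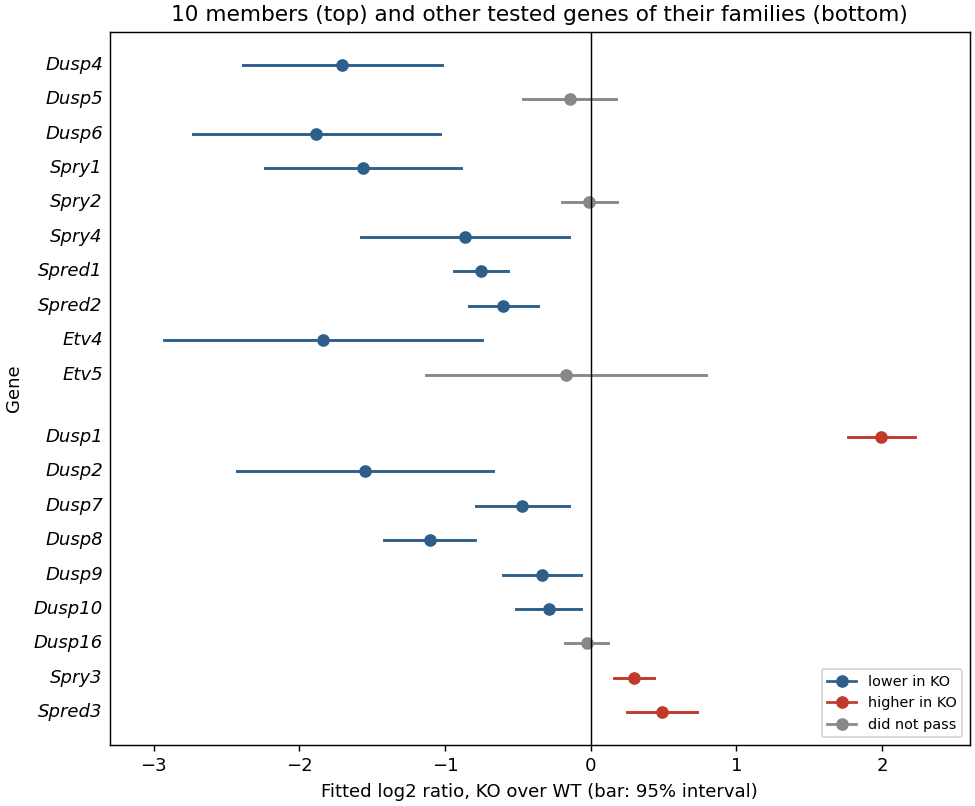
Fitted log2 ratio of KO over WT with its 95% interval for the 10 genes (top) and the 9 other tested genes of their families (bottom), coloured by the edgeR call. Dusp1 stands alone near 2, while Dusp6, Etv4, Dusp4, Dusp2 and Spry1 lie between -1.88 and -1.55.

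Upstream of the feedback genes, growth factor ligand genes were lower more often than higher. Of 22 listed, 16 were tested. Among these 9 were lower and 2 higher (7 and 3 with library totals), at a median log2 change of -0.52. Ereg, which encodes the EGF receptor ligand epiregulin, fell from 3.28 ± 0.210 to 0.113 ± 0.102 CPM (log2 change -4.81). With 1 library left out its log2 change ran from -5.52 (without KO replicate 2) to -4.23. Fgf5 fell from 201 ± 14.5 to 58.5 ± 19.6 CPM (-1.78) and Fgf18 from 50.7 ± 1.97 to 14.6 ± 4.91 CPM (-1.79). Pdgfb fell by 1.68 on the log2 scale, while the metabolic hormone gene Fgf21 rose by 2.01. Fgf2, Pdgfc and Egf, at log2 changes of -0.32, 0.43 and -0.32, did not pass. Pdgfc passed with upper-quartile scaling and library totals, and Fgf2 and Pdgfc passed without KO replicate 3.

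Receptor tyrosine kinase genes were split, with 6 higher and 7 lower of 15 tested and a median log2 change of -0.06, which was 0.06 with library totals. Epha2, an ephrin receptor gene, fell from 91.8 ± 13.2 to 15.0 ± 6.27 CPM (-2.60), and Epha4 fell by 2.08. The FGF receptor gene Fgfr3 fell from 40.5 ± 1.49 to 10.98 ± 0.980 CPM (-1.88) and Axl fell from 222 ± 10.1 to 77.5 ± 3.12 CPM (-1.52). Pdgfrb rose by 2.14. Fgfr1 (9.08 ± 1.22 and 9.47 ± 0.473 CPM) and Pdgfra (6.59 ± 0.518 and 5.93 ± 0.491 CPM, KO and WT) did not pass.

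In the core of the cascade, 24 genes were tested, of which 5 were higher and 12 lower, and the median log2 change was -0.16. With library totals these counts were 7 and 9 and the median was -0.042. Genes of small GTPases of the RAS family made up several of the falls: Rras2 was at -1.14, Mras at -0.95 and Hras at -0.89. Mapk3, which encodes ERK1, rose from 58.8 ± 3.90 to 126 ± 26.5 CPM (1.10), and the FGF receptor adaptor gene Frs3 rose by 0.98. Sos1, Grb2 and Braf did not pass. Without KO replicate 2, Grb2 (adjusted p = 0.0119) and Braf (0.0143) passed in edgeR, and Braf also did without KO replicate 3 (0.0386), with upper-quartile scaling (0.0274) and with library totals (0.00795).

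Most of the other brakes on RAS and ERK did not pass. Of 18 tested, 4 were higher and 2 lower and the median log2 change was 0.06, while library totals gave 8 higher and 0 lower. On the log2 scale the ubiquitin ligase gene Cblb rose by 1.16, the FGF signalling inhibitor gene Il17rd by 0.87, the RAS degradation adaptor gene Lztr1 by 0.45 and the suppressor of cytokine signalling gene Socs6 by 0.25. Il17rd, itself known as an FGF-induced feedback gene, had 43.4 ± 7.17 CPM in KO against 23.7 ± 3.18 CPM in WT. Errfi1, an inhibitor of the EGF receptor, fell by 0.29, and lost this call with library totals (adjusted p = 0.0763). Pebp1, Cbl and Nf1 did not pass.

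Genes known as outputs of ERK signalling, other than the 10, were mostly lower. Of 16 tested, 12 were lower and 1 higher, beside 27.8% of all tested genes each way, at a median log2 change of -1.13. Besides Epha2 and Epha4, which are receptors as well, Lif fell from 41.3 ± 2.27 to 15.5 ± 2.54 CPM (-1.41) and Odc1, the ornithine decarboxylase gene, from 285 ± 13.6 to 109 ± 24.4 CPM (-1.39). Areg, an EGF receptor ligand gene, fell by 1.35. This call was lost with library totals, without KO replicate 1 and without any WT replicate (1, 2 or 3), at adjusted p up to 0.124 in edgeR. With 1 library left out the log2 change of Areg ran from -2.27 (without KO replicate 2) to -0.91. Hmga2 did not pass with all libraries and did without KO replicate 2 (adjusted p = 1.84e-04). Other ETS factor genes were split, 2 higher and 2 lower of 9 tested: Ets1 fell by 0.81 and Elk3 by 0.72, and Etv3 rose by 0.40 and Elk1 by 0.29. Gabpa, Erf and Ets2 did not pass, though Gabpa did with library totals (adjusted p = 0.00705).

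The immediate early genes listed here, which are also switched on through ERK among other routes, went the other way from the feedback genes. Of 15 tested, 10 were higher and 0 lower, beside 27.8% of all tested genes each way, at a median log2 change of 1.90. The split depends on where genes were listed. Egr1 stands here and among the ERK outputs. Myc (-1.05), Ier3 (-0.77), Maff (-1.03) and Fosl1 (-1.26) were called lower. They stand only among the outputs, of which 12 of 16 were lower and 1 higher, though they can be counted as early genes too. They were named after their values were seen. Fos was at 181, 304 and 118 CPM in the KO libraries against 4.72, 3.78 and 15.9 CPM in WT, and Fosb at 163, 322 and 77.6 CPM against 1.46, 1.21 and 6.95 CPM. All KO libraries lay far above all WT libraries for both genes, in the same libraries in which Dusp6 was low. With the replicate number as a block, Fos and Fosb lost their calls (adjusted p = 0.0679 and 0.0695 in edgeR). Their log2 changes were then 4.63 and 5.64. Nr4a1, Egr2 and Egr3 rose by 4.09, 3.92 and 3.74 on the log2 scale. WT replicate 3 was the WT library with the most Fos, Fosb and Egr1, and without it the log2 changes were 5.56 for Fos (4.599 with it), 7.13 for Fosb (5.82 with it), 4.92 for Egr2 and 5.27 for Egr3. The lowest log2 changes with 1 library left out were 4.16 for Fos, 5.16 for Fosb (without KO replicate 2), 3.55 for Egr2 and 3.19 for Egr3. Egr1 was above WT in every KO library (182, 108 and 89.6 against 8.35, 9.62 and 48.1 CPM) and did not pass (adjusted p = 0.0682 in edgeR). It did without WT replicate 3 (7.04e-04), in the non-robust edgeR fit (0.00298), in DESeq2 (0.00835) and in limma voom (8.06e-04). Srf and Klf4 did not pass, though Klf4 did without KO replicate 3 (adjusted p = 0.0317).

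**Figure D5:**
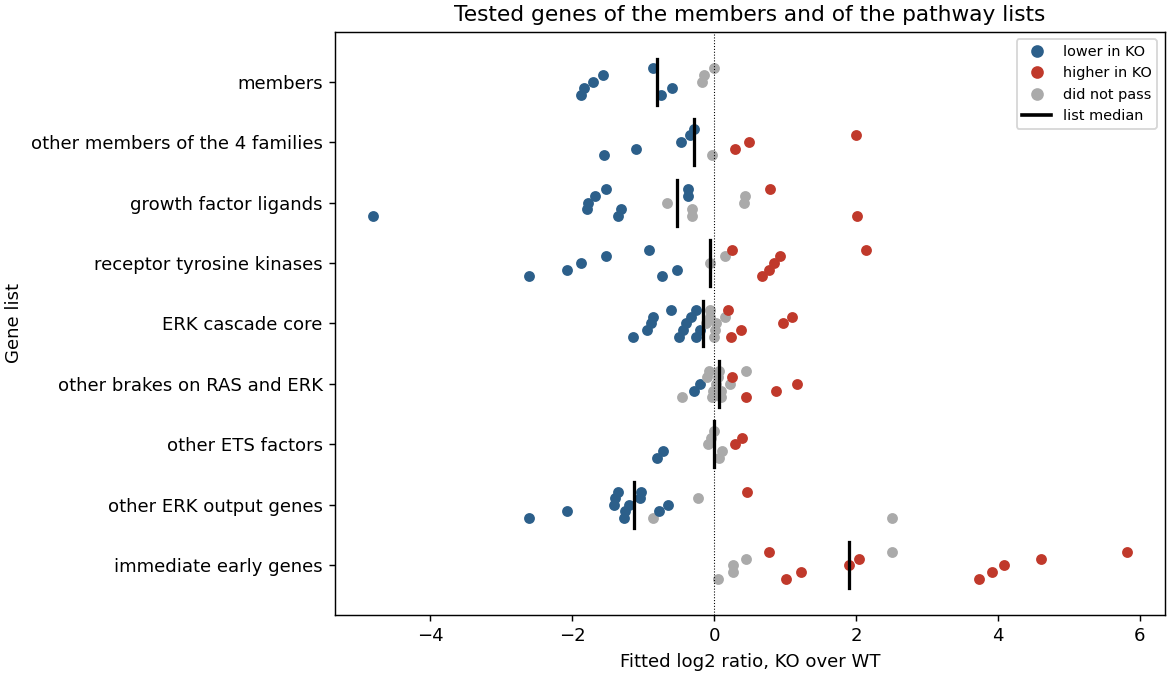
Each point is the fitted log2 ratio of KO over WT of a tested gene, grouped by list and coloured by the edgeR call, with a bar at the list's median. The medians of the 10 feedback genes (-0.81), the other ERK output genes (-1.13) and the growth factor ligands (-0.52) lie left of 0. That of the immediate early genes (1.90) lies to the right. Those of the core of the cascade (-0.16) and its other brakes (0.06) lie nearer 0, though 12 of 24 tested core genes were lower and 5 higher.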

How the data were processed

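The authors deposited raw counts of reads per Ensembl gene, with no normalization, for 3 KO and 3 WT libraries. Per the submitters' processing notes, the genome build was GRCm38 (mm10), the aligner and counter packages named were STAR 2.5.2b and Subread 1.5.2, and bcl2fastq 2.17, Trimmomatic 0.36 and DESeq2 were named too. The sources used here do not give the annotation release, the strand setting or how multimapping reads were handled. From these counts, genes were filtered with filterByExpr (minimum count 10), which all 10 members passed, scaled by TMM and fitted with genotype alone by edgeR 4.0.16 (robust quasi-likelihood, R 4.3.3). SE is the log2 change divided by the root of F. The fit was tested on simulated counts with set folds and the same small spread for all genes. That run does not cover genes that varied between KO libraries as Dusp4, Dusp6 and Etv4 did. Alternatives were other scalings, filters and thresholds, DESeq2 1.42.0, limma 3.58.1 voom, a replicate block, and leaving out each library. The members and gene lists were chosen with earlier results of these data known, so no test over a list is given. All genes of the 4 families were named. From each pathway list, up to 5 called genes (those that changed most) and up to 3 that did not pass (the most abundant) were added. All of these list genes reached 1 CPM in the higher genotype. Wt1, Upk3b and the other markers were named as a check, and Myc, Ier3, Maff and Fosl1 were named outside this rule. A few listed genes are not reported here and were taken out of the list counts. Promoter windows are from RefSeq.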

Additional observations from a re-analysis of the deposited data

How the results depend on the processing

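Under the 17 alternatives, 6 or 7 of the 10 feedback genes were called and 0 were higher, except in the test against a 1.5-fold change, which called 3 (Dusp4, Dusp6 and Spry1, all lower) and 2277 genes in all. Spry4 was the member lost wherever 1 was lost in the others, and Dusp5 was gained without KO replicate 3. The filter at 1 CPM left Spry4 and Etv5 untested. Library totals put the median gene at a log2 change of 0.13, and 5771 genes were higher and 3294 lower (63.7% of calls higher, against 50.01% with TMM), so small changes are relative to TMM. Leaving out 1 library gave 7587 to 10002 called genes, the most without KO replicate 2. Same-numbered libraries share a set number in their column names, and the labels do not say what a set was. Over all tested genes they did not deviate together (correlations of -0.0590, 0.0513 and 0.0283). Such correlations cannot exclude a shared set that acted on some of the genes. The replicate block called 7 members and 8878 genes. Among the 70 tested genes followed, Fos and Fosb lost their calls under it (adjusted p = 0.0679 and 0.0695 in edgeR). Fgf2, Pdgfc and Hmga2 gained them, and no other call changed.

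Of 70 tested genes followed, 48 were called and 0 of these changed sign. Sign changes among genes that did not pass follow. With library totals the log2 change was 0.11 for Spry2, 0.090 for Dusp16, 0.072 for Erf, 0.060 for Fgfr1, 0.066 for Sos1, 0.0033 for Grb2, 0.025 for Pebp1, 0.10 for Cbl and 0.085 for Nf1. With upper quartiles it was 0.042 for Spry2, 0.022 for Dusp16, 0.0025 for Erf, 0.035 for Cbl and 0.016 for Nf1. Ets2 was at -0.00610 with DESeq2 size factors, -0.00844 with no filter, -0.0115 in DESeq2 and -2.13e-04 in limma voom. Leaving out 1 library gave -0.11 to 0.059 for Spry2, -0.52 to 0.10 for Etv5, -0.087 to 0.034 for Dusp16, -0.039 to 0.052 for Ets2, -0.18 to 0.016 for Fgfr1, -0.062 to 0.15 for Srf and -0.045 to 0.50 for Klf4. The causes were not tested. Counts were lowest for Etv4, Etv5 and Spry4, at 71 or fewer per library.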
